A study of Mus musculus with 12 samples.

Results

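The tumour necrosis factor (TNF) superfamily of ligands and receptors was followed across endothelial cells sorted from the ventricles of embryonic mouse hearts. Its members were the genes of the expression table whose symbol starts with Tnfrsf or Tnfsf, together with Tnf, Fas, Fasl, Cd40, Cd27, Ltbr and Eda2r, less 2 receptor genes that the rule sets aside. That gave 39 of 41214 genes, of which 28 had enough counts to be tested and 11 did not. Polyadenylated RNA was sequenced in 12 bulk libraries, and 15171 genes of the table passed the same filter.

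Endothelium lining the heart chambers (endocardial) was set against endothelium of the coronary vessels at 2 embryonic stages, labelled E13 and E17. The design text gives these stages as E13.5 and E17.5. All 4 groups were sorted from ventricles, with atria and the aortic region taken off, as viable cells without Ter119 (red cells) or CD45 (leukocytes) and with CD31, an endothelial surface protein. The E13 embryos were Nes-gfp(Tg/0), in which regulatory sequence of the nestin gene drives GFP. At that stage the 4 endocardial libraries came from GFP-low, endomucin-high cells and the 4 coronary libraries from GFP-positive cells. The E17 embryos carried Nes-Gfp(Tg/0) together with Nes-CreER(Tg/0) and R26(tom/+), so that a nestin-driven inducible Cre can turn on Tomato, with 0.1 ug tamoxifen dosed at E15.5. The 2 endocardial libraries of E17 came from a gate described as GFP-positive. For E17 coronary cells 2 gates are described, a Tomato-positive one for arteries and capillaries and a Tomato-negative one for veins, both endomucin-low, and the labels do not say which gave the 2 coronary libraries. The stages therefore differ in alleles, tamoxifen and gate as well as in age, and each batch label holds 1 stage, so that stage and batch cannot be told apart.

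TNF family ligands are mostly trimeric membrane proteins, some of them shed by proteases, and they bind receptors with shared cysteine-rich repeats. Receptors with a death domain can recruit FADD or TRADD and lead to caspase activation or to NF-kB, the other signalling receptors recruit TRAF adaptors, and decoy receptors bind ligand without a full signalling tail. In endothelium TNF is best known for inducing leukocyte adhesion molecules such as E-selectin and VCAM-1.

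Total expected counts ran from 14973633 to 27360653 per library, and levels are given as CPM (the count divided by the TMM-adjusted library total and rescaled as usual), over 4 libraries in each E13 group and 2 in each E17 group. Differences are log2 fold changes ± SE from edgeR's quasi-likelihood test over all 12 libraries, with Benjamini-Hochberg adjustment over all 15171 genes, and a gene is said to have risen, fallen or passed when its adjusted p was below 0.05. The labels name no litters, so the p-values measure only the spread between these libraries. In such bulk samples, fewer cells of a kind and less RNA per cell cannot be told apart. Endothelial markers were high in every group, with Cdh5 (VE-cadherin) averaging between 1718 and 3564 CPM, but they were not even. At E13, 10 such markers summed to 8354 to 9302 CPM in endocardial and 5571 to 7615 in coronary libraries. At E17 they summed to 8415 to 8846 CPM in endocardial and 11220 to 12600 in coronary libraries. Of the 10, 2 were higher and 7 lower in coronary libraries at E13, and 6 were higher and 3 lower at E17. Npr3, an endocardial marker, averaged 1680 CPM in E13 endocardial, 223.5 in E13 coronary, 2314 in E17 endocardial and 11.5 in E17 coronary libraries. Many members are best known from leukocytes, and 12 leukocyte markers summed to between 18.7 and 38.7 CPM per library, with Ptprc (CD45) at 0 to 8 counts, Cd3e at 0 to 1 and Cd79a at 2 to 9. Of the 6 leukocyte markers that could be tested, 3 were higher and 1 lower in coronary libraries at E13, and 1 was higher and 3 lower at E17.

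The family split into a broadly expressed set of receptors and a group of genes that differed strongly between the 2 kinds of endothelium. Tnfrsf1a (TNF receptor 1) and Ltbr (lymphotoxin beta receptor) were the most abundant members in all 4 groups. Tnf and Tnfrsf9 (4-1BB) were near 0 in endocardial and clearly present in coronary libraries at both stages. Tnfsf10 (TRAIL) and Tnfsf12 (TWEAK) rose in both populations between the stages, and Tnfrsf12a (the TWEAK receptor Fn14) rose in endocardial and fell in coronary libraries.

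**Figure D1:**
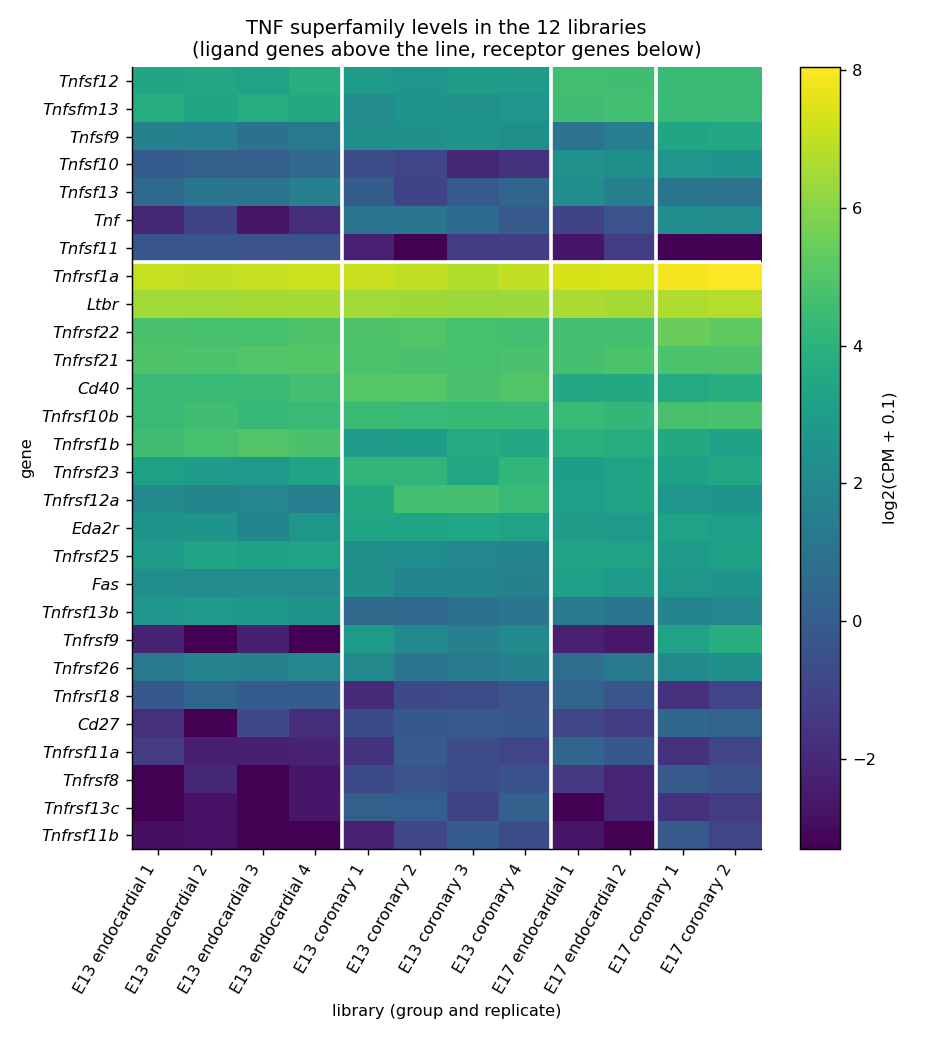
Heat map of log2(CPM + 0.1) for the 28 tested members (vertical axis) in the 12 libraries (horizontal axis), ligand genes above the white line and receptor genes below it. Tnfrsf1a and Ltbr form the brightest lines in every library, and Tnfrsf9 is dark in the 6 endocardial and bright in the 6 coronary libraries.

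Levels of different genes were compared only per length, as mean CPM per kilobase of exon sequence (the union of a gene's exons in GENCODE for GRCm38). Tnfrsf1a stood at 52.2 per kilobase in E13 endocardial, 48.3 in E13 coronary, 64.7 in E17 endocardial and 97.2 in E17 coronary libraries, and Ltbr at 38.4, 36.4, 40.5 and 45.4. These were the first and second places of the family in every group. Tnfrsf1a lay between the 94.1 and 96.9 percentile and Ltbr between the 91.9 and 92.9 percentile of 15042 genes with a length. The third place belonged to Tnfrsf21 in E13 endocardial libraries at 7.43, to Tnfrsf12a in E13 coronary libraries at 10.7, and to Tnfsf12 in E17 endocardial and E17 coronary libraries at 15.7 and 14.1 CPM per kilobase.

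Among the ligands, Tnf was low in endocardial and higher in coronary libraries. Tnf, the founding cytokine of the family, lies on chr17:35199381-35202007 (GRCm38, minus strand). It was measured at 0.150, 0.384, 0.04998 and 0.178 CPM in the 4 E13 endocardial libraries and 2.00, 2.08, 1.46 and 0.854 CPM in the 4 E13 coronary libraries. At E17 its values were 0.382 and 0.648 CPM in endocardial and 4.66 and 4.37 CPM in coronary libraries. At each stage the lowest coronary value was above the highest endocardial value. Tnf had enough counts to be tested only through coronary libraries, so its excess there is a description. The coronary excess was 3.03 ± 0.45 (adjusted p = 9.85e-05) on the log2 scale at E13 and 3.13 ± 0.57 (adjusted p = 0.000558) at E17. In pooled counts this was 130 against 16 at E13, a CPM ratio of 9.23 (exact 95% interval 5.47 to 16.6), and 141 against 17 at E17, a ratio of 9.01 (5.43 to 15.9); such intervals cover counting error only. Within coronary libraries Tnf rose by 1.49 ± 0.41 (adjusted p = 0.00962) from E13 to E17, with the call lost without E17 coronary replicate 1 (adjusted p = 0.0542). The endocardial change of 1.39 ± 0.60 (adjusted p = 0.102) did not pass, but did so without E13 endocardial replicate 2 (adjusted p = 0.0302). The summed leukocyte markers came to 20.9 to 25.9 CPM in E13 endocardial and 25.8 to 38.7 in E13 coronary libraries, higher in the group with more Tnf. At E17 they came to 21.5 to 28.2 CPM in endocardial and 18.7 to 19.7 in coronary libraries, lower in the group with more Tnf. The list was not uniform: Laptm5, the most abundant leukocyte marker in coronary libraries, averaged 6.89 ± 1.31 CPM (mean ± SD) in E13 endocardial, 18.5 ± 4.40 in E13 coronary, 3.39 ± 1.68 in E17 endocardial and 14.4 ± 1.02 in E17 coronary libraries, higher in the group with more Tnf at both stages. Ptprc had 0 to 3 counts in the coronary and 0 to 8 in the endocardial libraries. The part of leukocyte RNA in the Tnf result was not tested.

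Tnfsf9 (4-1BB ligand) and its receptor Tnfrsf9 were both higher in coronary libraries. Tnfsf9 stood at 3.12, 2.83, 1.85 and 2.32 CPM in E13 endocardial and 4.81, 5.15, 5.80 and 4.96 CPM in E13 coronary libraries. At E17 it was at 1.91 and 2.85 CPM in endocardial and 10.2 and 11.6 CPM in coronary libraries. The groups did not overlap at either stage, and the E17 coronary pair lay above all other libraries. The coronary excess of Tnfsf9 was 1.02 ± 0.18 (adjusted p = 0.000328) at E13 and 2.19 ± 0.26 (adjusted p = 1.7e-05) at E17 on the log2 scale. It widened between the stages by 1.17 ± 0.31 (adjusted p = 0.0124), a call lost without E17 endocardial replicate 1 (adjusted p = 0.0794) or E17 coronary replicate 2 (0.0549). Tnfsf9 rose by 1.07 ± 0.20 (adjusted p = 0.000816) in coronary libraries, while the endocardial change was -0.10 ± 0.23 (adjusted p = 0.779). An antisense model, Gm11110, shares 192 exon bases with Tnfsf9, and reads of both strands were not separated.

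Tnfrsf9, a costimulatory receptor that signals through TRAF adaptors, showed the widest difference of the family between the populations. It lies on chr4:150914562-150946102 (plus strand). The 4 E13 endocardial libraries held 0.113, 0, 0.0999 and 0 CPM and the 4 E13 coronary libraries 7.14, 4.16, 2.98 and 4.16 CPM. At E17 the values were 0.109 and 0.0648 CPM in endocardial and 9.19 and 14.1 CPM in coronary libraries. Endocardial libraries were thus at or next to 0 at both stages. The log2 difference was 6.14 ± 0.51 (adjusted p = 7.71e-07) at E13 and 6.93 ± 0.69 (adjusted p = 4.17e-06) at E17. Pooled counts were 365 against 5 at E13, a CPM ratio of 82.9 (exact 95% interval 35.2 to 257), and 369 against 3 at E17, a ratio of 134 (45.4 to 651). Tnfrsf9 had enough counts to be tested only through coronary libraries, so its excess there is a description. Laptm5 was also higher in coronary libraries at both stages, as were summed mural markers, while the leukocyte sum was higher at E13 and lower at E17. The part of RNA from other cells in the Tnfrsf9 result was not tested. Within coronary libraries Tnfrsf9 rose by 1.34 ± 0.35 (adjusted p = 0.0076), which did not pass without E17 coronary replicate 2 (adjusted p = 0.127).

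**Figure D2:**
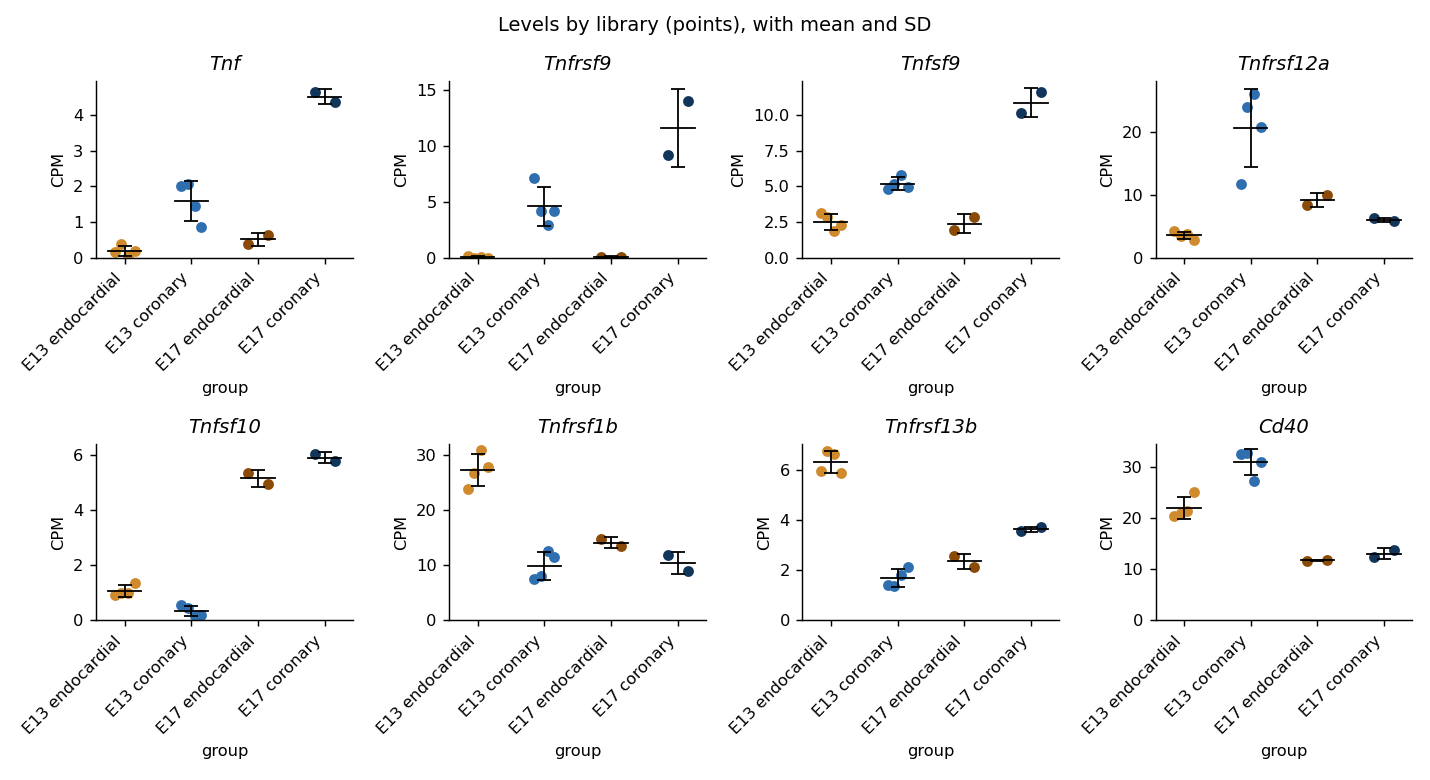
CPM of 8 members (vertical axis, from 0, scaled per gene) in the 4 groups (horizontal axis), with 1 point per library and bars for the mean and SD. Tnf, Tnfrsf9 and Tnfsf9 are higher in coronary than in endocardial libraries at both stages, Tnfrsf12a is highest in E13 coronary libraries, and Tnfsf10 is highest in the 4 libraries of E17.

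Tnf and Tnfrsf9 are both textbook targets of NF-kB, so the sequence before their starts is shown for the 2 members with these coronary levels. Sequences are RefSeq windows of 250 bases before a gene's start (GRCm38.p6), found for 30 of the 39 members. The search for motifs was added after the levels had been seen. It used the NF-kB consensus and AP-1 (TGANTCA), each on both strands. The Tnfrsf9 stretches stand 48 to 24 and 20 to 1 bases before the downstream of its 2 RefSeq starts, at chr4:150927951-150927975 and chr4:150927979-150927998 on the plus strand, with capitals on the match to NF-kB (2 overlapping matches) in the first and to AP-1 in the second. In the window of the upstream Tnfrsf9 start, chr4:150919905-150920154, neither motif matched. The window of the downstream Tnfrsf9 start includes 81 bases of annotated exon. The Tnf window is chr17:35202008-35202257 on the minus strand, and neither motif matched there.
Tnfrsf9 NF-kB stretch: cagctGGGGATTTCCCaggaggccc
Tnfrsf9 AP-1 stretch: tcagtTGAGTCAcaggtcct
Tnf window: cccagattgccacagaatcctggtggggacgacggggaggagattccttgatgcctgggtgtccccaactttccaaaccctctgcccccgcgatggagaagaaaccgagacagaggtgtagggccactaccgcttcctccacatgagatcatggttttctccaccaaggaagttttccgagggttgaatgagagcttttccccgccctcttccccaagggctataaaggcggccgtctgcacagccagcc
Matches to the NF-kB consensus were found in 3 of the 30 members (Tnfrsf8, Tnfrsf9 and Tnfrsf25) and in 7.25% of the 32851 RefSeq windows searched. A member was counted if any of its windows matched, with 33 windows for the 30 members, whereas the shares are per window. AP-1 was matched in 6 members (Fas, Tnfrsf8, Tnfrsf9, Tnfsf13, Tnfsf13b and Tnfsf14) and in 6.75% of the windows searched. A match is a string of letters in this window and was not tested for binding.

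Tnfsf10 (TRAIL), which can trigger cell death through its receptor Tnfrsf10b, was much higher at E17 in both populations. Tnfsf10 values were 0.902, 1.01, 1.00 and 1.37 CPM in E13 endocardial and 0.541, 0.433, 0.151 and 0.213 CPM in E13 coronary libraries. At E17 they were 5.35 and 4.93 CPM in endocardial and 6.04 and 5.75 CPM in coronary libraries. Every E17 library lay above every E13 library. Tnfsf10 rose by 2.27 ± 0.30 (adjusted p = 0.000154) in endocardial and by 4.11 ± 0.33 (adjusted p = 1.18e-06) in coronary libraries on the log2 scale. Its coronary-endocardial difference was -1.64 ± 0.32 (adjusted p = 0.000809) at E13 and 0.20 ± 0.34 (adjusted p = 0.659) at E17, and the change between the stages, 1.84 ± 0.47 (adjusted p = 0.0102), passed.

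The TWEAK and APRIL locus on chromosome 11 also rose from E13 to E17. Tnfsf12 encodes TWEAK, Tnfsf13 encodes APRIL, and Tnfsfm13 is the readthrough model that joins them. Tnfsfm13 shares 731 exon bases with Tnfsf12 and 983 with Tnfsf13, so the split of reads between the 3 genes is an estimate. Tnfsf12 stood at 10.4, 11.2, 9.60 and 13.6 CPM in E13 endocardial and 7.195, 5.98, 8.12 and 7.63 CPM in E13 coronary libraries. At E17 Tnfsf12 was at 24.1 and 23.5 CPM in endocardial and 21.3 and 21.3 CPM in coronary libraries. The E17 libraries were all above the E13 libraries, and at E13 the populations did not overlap. Tnfsfm13 averaged 12.1 ± 1.25 CPM (mean ± SD) in E13 endocardial, 5.26 ± 0.650 in E13 coronary, 24.6 ± 1.22 in E17 endocardial and 20.8 ± 0.0950 in E17 coronary libraries. Tnfsf12 rose by 1.09 ± 0.14 (adjusted p = 9.93e-05) in endocardial and 1.56 ± 0.14 (adjusted p = 2.26e-06) in coronary libraries, and Tnfsfm13 by 1.02 ± 0.12 (adjusted p = 6.56e-05) and 1.98 ± 0.12 (adjusted p = 1.5e-07). At E13 both were lower in coronary libraries, at log2 differences of -0.63 ± 0.12 (adjusted p = 0.000632) for Tnfsf12 and -1.20 ± 0.11 (adjusted p = 1.32e-06) for Tnfsfm13. At E17 these differences were -0.16 ± 0.16 (adjusted p = 0.429) and -0.24 ± 0.14 (adjusted p = 0.175) and did not pass. With all reads of the locus summed, an alternative added after the data were seen, the log2 difference was -0.92 ± 0.080 (adjusted p = 1.07e-06) at E13 and -0.24 ± 0.11 (adjusted p = 0.071) at E17. The summed locus rose by 1.02 ± 0.090 (adjusted p = 8.38e-06) in endocardial and 1.70 ± 0.092 (adjusted p = 5.38e-08) in coronary libraries.

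Tnfsf13 itself was at 1.39, 2.11, 1.90 and 2.97 CPM in E13 endocardial and 0.920, 0.390, 0.807 and 1.23 CPM in E13 coronary libraries. In the E17 pairs its values were 4.75 and 2.92 CPM (endocardial) and 1.99 and 1.92 CPM (coronary). It was lower in E13 coronary than in E13 endocardial libraries, at a log2 difference of -1.32 ± 0.34 (adjusted p = 0.00503), and rose in coronary libraries by 1.23 ± 0.41 (adjusted p = 0.0248). The rise did not pass without E17 coronary replicate 1 (adjusted p = 0.0926) or replicate 2 (0.0918). Tnfsf13os, an RNA read from the opposite strand of this locus, shares 221 exon bases with Tnfsf13 and was too low to test, with 7.46 to 27.6 counts per group.

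Tnfsf11 (RANKL), the ligand that drives osteoclast formation elsewhere, was an endocardial transcript of low level at E13. The 4 E13 endocardial libraries held 19, 15, 13 and 11 counts and the 4 E13 coronary libraries 2, 0, 6 and 6. At E17 the endocardial libraries held 1 and 5 counts and both coronary libraries 0, where 0 still allows up to 3 counts. Tnfsf11 had enough counts to be tested only through E13 endocardial libraries, so its excess there is a description. The E13 groups did not overlap, at a log2 difference of -1.91 ± 0.67 (adjusted p = 0.0287), and pooled counts gave a CPM ratio of 0.274 (exact 95% interval 0.141 to 0.498). That call was lost without E13 endocardial replicate 1 (adjusted p = 0.0554) or 2 (0.0542) or E13 coronary replicate 1 (0.0644). At E17 the endocardial level was 1.84-fold above a floor of 3 counts over the coronary group. That ratio leaves out the counting error of the endocardial libraries, so it is not a lower limit, and the difference did not pass.

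The other ligands were too low to test. Over all 12 libraries Tnfsf18 (GITR ligand) had 43 counts, Tnfsf13b (BAFF) 21.2, Tnfsf14 (LIGHT) 14, Fasl (Fas ligand) 10, Tnfsf15 (TL1A) 7.01, Tnfsf4 (OX40 ligand) 3 and Tnfsf8 (CD30 ligand) 1. Tnfsf18 was uneven between the populations, where 18 counts in the E13 endocardial libraries faced 4 in the E13 coronary ones and 19 against 2 at E17. Its CPM ratio was 0.252 (exact 95% interval 0.0621 to 0.766) at E13 and 0.114 (0.0129 to 0.474) at E17, without a test over libraries.

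Among receptors with a death domain, Tnfrsf1a, the main signalling receptor for TNF, rose with stage, most in coronary libraries. Tnfrsf1a was at 134, 129, 131 and 147 CPM in E13 endocardial and 139.7, 124, 108 and 129 CPM in E13 coronary libraries. At E17 it was at 166 and 169 CPM in endocardial and 238 and 266 CPM in coronary libraries. The E13 groups overlapped, with a log2 difference of -0.11 ± 0.072 (adjusted p = 0.205), whereas at E17 the coronary pair was higher by 0.59 ± 0.10 (adjusted p = 0.00039). The coronary rise from E13 was 1.01 ± 0.086 (adjusted p = 1.6e-06) and exceeded the endocardial one by 0.70 ± 0.12 (adjusted p = 0.0011). The endocardial change was 0.31 ± 0.087 (adjusted p = 0.0171), and its call was lost without E17 endocardial replicate 1 (adjusted p = 0.084) or replicate 2 (0.103).

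Fas, Tnfrsf10b, Tnfrsf21 and Tnfrsf25, the other death domain receptors, are given next. Fas (CD95) rose in both populations, from 4.44 ± 0.175 to 7.77 ± 0.900 CPM (mean ± SD) in endocardial and from 3.77 ± 0.965 to 6.06 ± 0.353 CPM in coronary libraries. Those log2 changes were 0.81 ± 0.19 (adjusted p = 0.00657) and 0.69 ± 0.20 (adjusted p = 0.0113), lost without E17 endocardial replicate 1 (adjusted p = 0.084) and E17 coronary replicate 1 (0.0696). Between populations Fas did not pass at either stage, but did so at E13 without E13 coronary replicate 1 (adjusted p = 0.0185). Tnfrsf10b, the mouse TRAIL receptor, rose in coronary libraries from 20.4 ± 1.10 to 27.2 ± 0.517 CPM, by 0.42 ± 0.088 (adjusted p = 0.00185), against -0.11 ± 0.090 (adjusted p = 0.386) in endocardial libraries, which averaged 21.2 ± 1.76 and 19.6 ± 1.69 CPM. That left it higher in coronary libraries at E17 by 0.47 ± 0.10 (adjusted p = 0.00211), from -0.055 ± 0.073 (adjusted p = 0.538) at E13, and the change between stages passed at 0.53 ± 0.13 (adjusted p = 0.00704).

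Tnfrsf25 (DR3, the receptor for TL1A) was lower in coronary than in endocardial libraries at E13, at 4.76, 4.55, 3.78 and 3.52 against 7.22, 9.85, 9.05 and 9.69 CPM. The log2 difference was -1.10 ± 0.14 (adjusted p = 2.05e-05) with no overlap, and at E17 it was -0.23 ± 0.19 (adjusted p = 0.327). Its E17 values were 9.88 and 9.27 CPM in endocardial and 7.61 and 8.69 CPM in coronary libraries. Tnfrsf25 rose by 0.97 ± 0.16 (adjusted p = 0.000362) in coronary libraries. Its change of the population difference, 0.87 ± 0.23 (adjusted p = 0.0126), was lost without E17 endocardial replicate 2 (adjusted p = 0.0508) or E17 coronary replicate 2 (0.063). Tnfrsf21 (DR6) stayed between 25.6 and 32.0 CPM in all libraries. Its only call, a log2 difference of -0.15 ± 0.052 (adjusted p = 0.0262) at E13, was lost under 12 alternatives, among them library totals without composition scaling (adjusted p = 0.514), DESeq2 (0.12) and leaving out any 1 of 7 libraries (0.0571 to 0.102), namely E13 endocardial replicates 3 and 4, the 4 E13 coronary ones and E17 coronary replicate 1.

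Of the receptors that signal through TRAF adaptors, Tnfrsf12a (Fn14) changed its order between the stages. The E13 endocardial libraries held 4.21, 3.51, 3.70 and 2.79 CPM and the E13 coronary libraries 11.8, 23.99, 26.0 and 20.8 CPM. At E17 Tnfrsf12a stood at 8.35 and 9.98 CPM in endocardial and 6.24 and 5.81 CPM in coronary libraries. Coronary values were the higher ones at E13 and the lower ones at E17, without overlap. The log2 difference was 2.53 ± 0.22 (adjusted p = 1.22e-06) at E13 and -0.60 ± 0.31 (adjusted p = 0.125) at E17, which passed without E13 coronary replicate 1 (adjusted p = 0.0172). Tnfrsf12a rose by 1.35 ± 0.26 (adjusted p = 0.0021) in endocardial libraries. In coronary libraries its change was -1.78 ± 0.28 (adjusted p = 0.000224), and the change of the difference was -3.13 ± 0.39 (adjusted p = 7.49e-05). Markers of several other cell types moved with it in part. Of 11 fibroblast markers, 10 were higher in coronary libraries at E13 and 6 higher and 2 lower at E17. They summed to 1850 to 2082 CPM in E13 endocardial, 2752 to 7186 in E13 coronary, 2235 to 2474 in E17 endocardial and 2246 to 4933 in E17 coronary libraries. Coronary replicate 1 was the lowest and replicate 3 the highest of the 4 E13 coronary libraries both in this sum and in Tnfrsf12a. The same 2 libraries were the lowest and highest for summed glial and neural crest markers and for mural markers. The glial sum was 15.04, 36.3, 48.4 and 35.9 CPM in E13 coronary replicates 1 to 4, 3.12 to 4.10 in E13 endocardial, 2.72 to 3.77 in E17 endocardial and 5.15 to 8.71 in E17 coronary libraries. It was thus high where Tnfrsf12a was highest and lower in coronary libraries at E17. The mural sum was 383.5, 618.7, 766.8 and 543.9 CPM in E13 coronary replicates 1 to 4, 246.4 to 268.8 in E13 endocardial, 177 to 177.7 in E17 endocardial and 858.1 to 1118 in E17 coronary libraries. The part of RNA from these cells in the result was not tested; without each library in turn the E13 difference ran from 2.42 to 2.74.

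Tnfrsf1b (TNF receptor 2) and Tnfrsf13b (TACI, a receptor for BAFF and APRIL) were endocardial at E13. Tnfrsf1b was at 23.9, 26.8, 30.9 and 27.9 CPM in E13 endocardial and 7.57, 8.01, 12.7 and 11.5 CPM in E13 coronary libraries. At E17 it was at 14.8 and 13.48 CPM in endocardial and 11.9 and 9.04 CPM in coronary libraries. The E13 groups were wide apart and the E17 groups close but not overlapping. The log2 difference was -1.46 ± 0.16 (adjusted p = 7.67e-06) at E13 and -0.44 ± 0.23 (adjusted p = 0.134) at E17, where it passed with the batch as a block (adjusted p = 0.0352). Tnfrsf1b changed by -0.95 ± 0.20 (adjusted p = 0.00344) in endocardial and 0.071 ± 0.20 (adjusted p = 0.801) in coronary libraries. The change of the difference, 1.02 ± 0.28 (adjusted p = 0.0157), was lost without E17 endocardial replicate 2 (adjusted p = 0.0615) or E17 coronary replicate 1 (0.091).

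Tnfrsf13b stood at 5.98, 6.77, 6.65 and 5.89 CPM in E13 endocardial and 1.41, 1.39, 1.81 and 2.13 CPM in E13 coronary libraries. At E17 it was at 2.56 and 2.14 CPM in endocardial and 3.57 and 3.71 CPM in coronary libraries. Its order between the populations was opposite at the 2 stages, with no overlap at either. The log2 difference was -1.91 ± 0.16 (adjusted p = 9.68e-07) at E13 and 0.63 ± 0.23 (adjusted p = 0.0392) at E17. Tnfrsf13b fell by 1.42 ± 0.21 (adjusted p = 0.000282) in endocardial libraries and rose by 1.11 ± 0.20 (adjusted p = 0.000553) in coronary libraries, and the difference changed by 2.53 ± 0.29 (adjusted p = 3.83e-05). The E17 call did not hold with the batch as a block (adjusted p = 0.0725), by DESeq2 (0.0579), with no filter on low counts (0.0903), with only the groups compared in the fit (0.1), without E13 endocardial replicate 1 (0.0518) or 3 (0.0529), or without any one of the 4 E17 libraries (0.0604 to 0.179).

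Cd40, the receptor for CD40 ligand and an activator of endothelium, fell in both populations. Cd40 values were 20.4, 21.1, 21.3 and 25.1 CPM in E13 endocardial and 32.7, 32.7, 27.3 and 31.1 CPM in E13 coronary libraries. At E17 they were 11.7 and 11.9 CPM in endocardial and 12.3 and 13.8 CPM in coronary libraries. All E13 libraries lay above all E17 libraries, and at E13 the coronary values were the higher ones. Cd40 fell by 0.89 ± 0.11 (adjusted p = 8.47e-05) in endocardial and by 1.24 ± 0.11 (adjusted p = 2.14e-06) in coronary libraries, after a coronary excess of 0.50 ± 0.082 (adjusted p = 0.000212) at E13. Ltbr, which binds lymphotoxin and LIGHT, stayed between 81.7 and 110.2 CPM and rose by 0.32 ± 0.054 (adjusted p = 0.000381) in coronary libraries. Its E17 difference of 0.16 ± 0.063 (adjusted p = 0.0466) was lost with the batch as a block (adjusted p = 0.0881), with no filter on low counts and with only the groups compared in the fit. The call was also lost without any 1 of 6 libraries, namely the 4 E13 endocardial ones (adjusted p = 0.0533 to 0.0589), E17 endocardial replicate 2 and E17 coronary replicate 2. The change of the Ltbr difference between stages, 0.24 ± 0.077 (adjusted p = 0.0325), was likewise lost with the block (adjusted p = 0.0685) and without any 1 of 7 libraries, namely E13 endocardial replicates 3 and 4, E13 coronary replicates 2, 3 and 4, E17 endocardial replicate 2 and E17 coronary replicate 2 (0.0508 to 0.146).

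Eda2r, the receptor for one splice form of ectodysplasin, was higher in E13 coronary libraries at 10.2, 9.79, 10.9 and 9.34 CPM than in E13 endocardial libraries at 5.79, 5.81, 3.60 and 6.36 CPM. The difference was 0.90 ± 0.15 (adjusted p = 0.000252), and at E17 it was 0.30 ± 0.21 (adjusted p = 0.269), with 9.39 and 8.57 CPM in coronary and 7.58 and 7.001 CPM in endocardial libraries. Tnfrsf26, an orphan receptor of the chromosome 7 cluster, was higher in coronary libraries at E17, with 4.12 and 5.21 against 1.58 and 2.33 CPM, by 1.26 ± 0.35 (adjusted p = 0.00927). At E13 Tnfrsf26 averaged 3.11 ± 0.691 CPM in endocardial and 2.91 ± 0.844 CPM in coronary libraries. The E17 call was lost without E17 endocardial replicate 1 (adjusted p = 0.0876) or E17 coronary replicate 2 (0.0635). Its change between stages, 1.35 ± 0.42 (adjusted p = 0.0284), was lost without those libraries (adjusted p = 0.137 and 0.115) or E13 endocardial replicate 4 (0.0505).

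A further set of receptors known mainly from lymphocytes had few counts. Tnfrsf13c, Tnfrsf8 and Cd27 had enough counts to be tested only through coronary libraries. Their coronary excess and its p-values are therefore a description. Tnfrsf13c (the BAFF receptor) had 18, 22, 8 and 19.1 counts in the E13 coronary libraries and 0, 1.01, 0 and 1.25 in the E13 endocardial ones. Its CPM ratio from pooled counts was 38.1 (exact 95% interval 10.1 to 321), with a log2 difference of 4.78 ± 0.76 (adjusted p = 0.000157). Its E17 counts were 0 and 1.5 in endocardial and 3.12 and 5 in coronary libraries, which did not pass. Tnfrsf8 (CD30) was counted 0, 3, 0 and 1 times in the E13 endocardial libraries against 9, 15, 10 and 12 in the E13 coronary ones, a ratio of 13.1 (4.77 to 50.0) and a log2 difference of 3.40 ± 0.68 (adjusted p = 0.000906). At E17 it was counted 5 and 2 times in endocardial and 12 and 10 in coronary libraries. Its E17 ratio was 3.41 (1.41 to 9.46), and the E17 difference did not pass (adjusted p = 0.0843). Cd27, the receptor for CD70, was also higher in E13 coronary libraries, with 9, 18, 16 and 14 against 5, 0, 9.05 and 3 counts and a log2 difference of 1.77 ± 0.57 (adjusted p = 0.0182). At E17 Cd27 had 19 and 19 against 8 and 5 counts, a ratio of 3.18 (1.65 to 6.50). That difference had an adjusted p of 0.086, and it passed with only the groups compared in the fit (0.0284) or without E13 endocardial replicate 2 (0.0212). The B cell marker Cd79a was counted 4, 4, 6 and 2 times in the E13 endocardial and 5, 9, 8 and 8 times in the E13 coronary libraries, then 4 and 3 and 2 and 3 at E17, and the T cell marker Cd3e had 1 count in 1 library. The part of lymphocyte RNA in these differences was not tested.

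Tnfrsf18 (GITR) went the other way, with counts of 20.9, 24.5, 17.6 and 15.2 in the E13 endocardial and 3, 10.5, 10 and 13.3 in the E13 coronary libraries. It had enough counts to be tested only through endocardial libraries, so its excess there and the p-values are a description. Its log2 difference of -1.03 ± 0.40 (adjusted p = 0.0414) was lost with the batch as a block (adjusted p = 0.0556), by DESeq2 (0.0581), without composition scaling (0.067) and without any one of 9 libraries (0.05 to 0.105), which were all of E13 except coronary replicate 4 and replicate 1 of both E17 groups. At E17 Tnfrsf18 had counts of 20.6 and 10.98 in endocardial and 3.06 and 7 in coronary libraries (adjusted p = 0.0516). An antisense model, Gm16008, shares 414 exon bases with Tnfrsf18. Counts of Tnfrsf11a (RANK) were 7.59, 2.15, 2.18 and 2.09 in the E13 endocardial, 4.20, 20, 11.5 and 8 in the E13 coronary, 21.8 and 12.1 in E17 endocardial and 3.02 and 7.24 in E17 coronary libraries. Tnfrsf11a had enough counts to be tested only through E13 coronary and E17 endocardial libraries, so its excess in them and the p-values are a description. It rose in endocardial libraries by 2.58 ± 0.60 (adjusted p = 0.00621), a call lost without E17 endocardial replicate 1 (adjusted p = 0.0783). The E13 coronary excess of 1.66 ± 0.54 (adjusted p = 0.0189) was lost with the block (adjusted p = 0.0646) and without E13 endocardial replicate 2 (0.0516) or 3 (0.0512) or E13 coronary replicate 2 (0.0691). Its change of difference, -3.29 ± 0.89 (adjusted p = 0.014), was lost without E17 endocardial replicate 1 (adjusted p = 0.0685) or E17 coronary replicate 1 (0.0632).

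Receptors that act as decoys were led by Tnfrsf22 and Tnfrsf23, closely related neighbours on chromosome 7 that bind TRAIL in mice without a death domain. Tnfrsf22 was at 29.8, 31.0, 27.0 and 25.4 CPM in E13 coronary and 44.4 and 37.9 CPM in E17 coronary libraries, and between 25.02 and 30.1 CPM in the 6 endocardial libraries. It rose in coronary libraries by 0.54 ± 0.090 (adjusted p = 0.000361) and was higher there at E17 by 0.70 ± 0.11 (adjusted p = 0.000154). Tnfrsf23 was higher in E13 coronary libraries, at 17.6, 17.1, 10.9 and 17.6 against 8.68, 7.49, 6.85 and 9.81 CPM, by 0.94 ± 0.17 (adjusted p = 0.00035). At E17 it was at 8.13 and 9.79 CPM in endocardial and 9.05 and 10.8 CPM in coronary libraries. It fell in coronary libraries by 0.66 ± 0.21 (adjusted p = 0.0186), a call lost without E17 coronary replicate 1 (adjusted p = 0.134). The change of its difference, -0.79 ± 0.29 (adjusted p = 0.0566), passed with the batch as a block (adjusted p = 0.0111). Because reads can be split between these copies, both were also summed, an alternative added after the data were seen. The sum was higher in coronary libraries by 0.30 ± 0.080 (adjusted p = 0.00664) at E13 and 0.58 ± 0.12 (adjusted p = 0.00108) at E17. The coronary change of the sum, 0.21 ± 0.097 (adjusted p = 0.0897), and the change of the difference, 0.28 ± 0.14 (adjusted p = 0.15), did not pass, whereas for Tnfrsf22 alone the latter was 0.67 ± 0.13 (adjusted p = 0.00208). Tnfrsf23 and Tnfrsf26 also share 164 and 107 exon bases with the antisense model E230032D23Rik.

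Tnfrsf11b (osteoprotegerin), the secreted decoy for RANKL, was at or near 0 in endocardial libraries. Its counts were 1, 1, 0 and 0 in the E13 endocardial and 2, 10, 18 and 10 in the E13 coronary libraries, then 1 and 0 in E17 endocardial and 12 and 7 in E17 coronary libraries. No endocardial library had more than 1 count. Tnfrsf11b thus entered the test only through coronary libraries, so its excess there is a description. The pooled CPM ratio was 22.7 (exact 95% interval 5.89 to 194) at E13 and 20.6 (3.28 to 858) at E17, with log2 differences of 4.07 ± 0.87 (adjusted p = 0.00147) and 4.11 ± 1.25 (adjusted p = 0.0149). The E17 call was lost without E17 endocardial replicate 2 (adjusted p = 0.0884) or E17 coronary replicate 1 (0.0745). Among the E13 coronary libraries Tnfrsf11b was lowest in replicate 1 and highest in replicate 3, as were the summed fibroblast, glial and mural markers given for Tnfrsf12a; the part of RNA from such cells in it was not tested.

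Receptors too low to test were Tnfrsf4 (OX40) with 95 counts over all libraries, Tnfrsf14 (HVEM) with 55 and Tnfrsf17 (BCMA) with 2. Tnfrsf14 had 17 counts in E17 coronary and 5 in E17 endocardial libraries, which gave a ratio in CPM of 3.69 (95% interval, exact, 1.31 to 12.8). At E13 it had 20 against 13 counts, a ratio of 1.75 (0.827 to 3.82). Tnfrsf4 was counted 24 times in the E13 coronary and 42 times in the E13 endocardial libraries, a ratio of 0.649 (0.376 to 1.10).

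Set beside their ligands, several receptors were expressed where no or little ligand RNA was. Cd70, the ligand of Cd27, and Cd40lg, that of Cd40, had 0 counts in all 12 libraries, which allows up to 3 counts each per library. Fasl had 10 counts in all, beside Fas at values between 3.04 and 8.40 CPM. For 4-1BB, ligand and receptor stood at 8.41 and 4.27 CPM per kilobase in E17 coronary libraries, and at 1.85 and 0.0319 in E17 endocardial libraries. In the TWEAK pair, Tnfsf12 stood at 7.39 and Tnfrsf12a at 1.84 CPM per kilobase in E13 endocardial libraries, and at 4.77 and 10.7 in E13 coronary libraries. At E17 the TWEAK ligand was at 15.7 and 14.1 and its receptor at 4.74 and 3.12 CPM per kilobase in endocardial and coronary libraries. The receptor thus exceeded the ligand per length in the E13 coronary group and was below it in the other 3. Tnf was below Tnfrsf1a per length in every group, and below Tnfrsf1b in all but the E17 coronary group. There Tnf stood at 2.76, Tnfrsf1b at 2.74 and Tnfrsf1a at 97.2 CPM per kilobase.

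At E13, coronary endothelium had more Tnf, Tnfsf9, Tnfrsf9, Tnfrsf12a and Cd40 RNA and less Tnfsf10, Tnfsf12, Tnfrsf1b and Tnfrsf13b RNA than endocardium. Of the 28 tested members 12 were higher and 10 lower in coronary libraries, and 6 did not pass. Over all genes tested 60% passed, 30.1% higher and 29.9% lower. Members that entered the test through 1 high group or population had to differ, so the 78.6% of tested members that passed is a description and not evidence about the family. Among them were Tnf, Tnfrsf8, Tnfrsf9, Tnfrsf11b, Tnfrsf13c and Cd27 through coronary libraries. Tnfrsf18 entered through endocardial libraries and Tnfsf11 through those of E13. Tnfrsf11a entered only through E13 coronary and E17 endocardial libraries, the groups where it was high. The same limit applies to the counts at E17 and between the stages. The members' median log2 difference was -0.066, against -0.019 over all genes. Scaling by library totals, an alternative added after the data were seen, moved the median of all genes by 0.11 at E13 and turned the split of calls from 4568 higher and 4538 lower to 5721 higher and 3397 lower.

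At E17 the members that passed without the batch block were all higher in coronary libraries. They were Tnf, Tnfsf9, Tnfrsf9, Tnfrsf1a, Tnfrsf10b, Tnfrsf11b, Tnfrsf13b, Tnfrsf22, Tnfrsf26 and Ltbr, 10 of 28, while 26.5% of all genes were higher. No member was lower by edgeR or by DESeq2, while 26.1% of all genes were, and 52.6% passed in all; 3 members were lower at an unadjusted p below 0.05. With the batch as a block, which pairs an endocardial and a coronary library, 8 members were higher and 1 was lower: Tnfrsf1b passed as lower (adjusted p = 0.0352), and Ltbr (0.0881) and Tnfrsf13b (0.0725) did not pass. Without E13 coronary replicate 1, 2 members passed as lower, Tnfrsf12a and Tnfrsf18 (adjusted p = 0.0172 and 0.0266), and without E13 coronary replicate 2, 1 did, Tnfsf11 (0.0315). The median of the members was 0.18, against -0.012 over all genes. Between the 2 stages, which share no libraries, 4 members were higher in coronary libraries both times, namely Tnf, Tnfsf9, Tnfrsf9 and Tnfrsf11b. In opposite directions 1 passed, Tnfrsf13b, its E17 call being one of those lost with the block. The share of all genes called at both stages was not counted, so these numbers describe the members only.

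**Figure D3:**
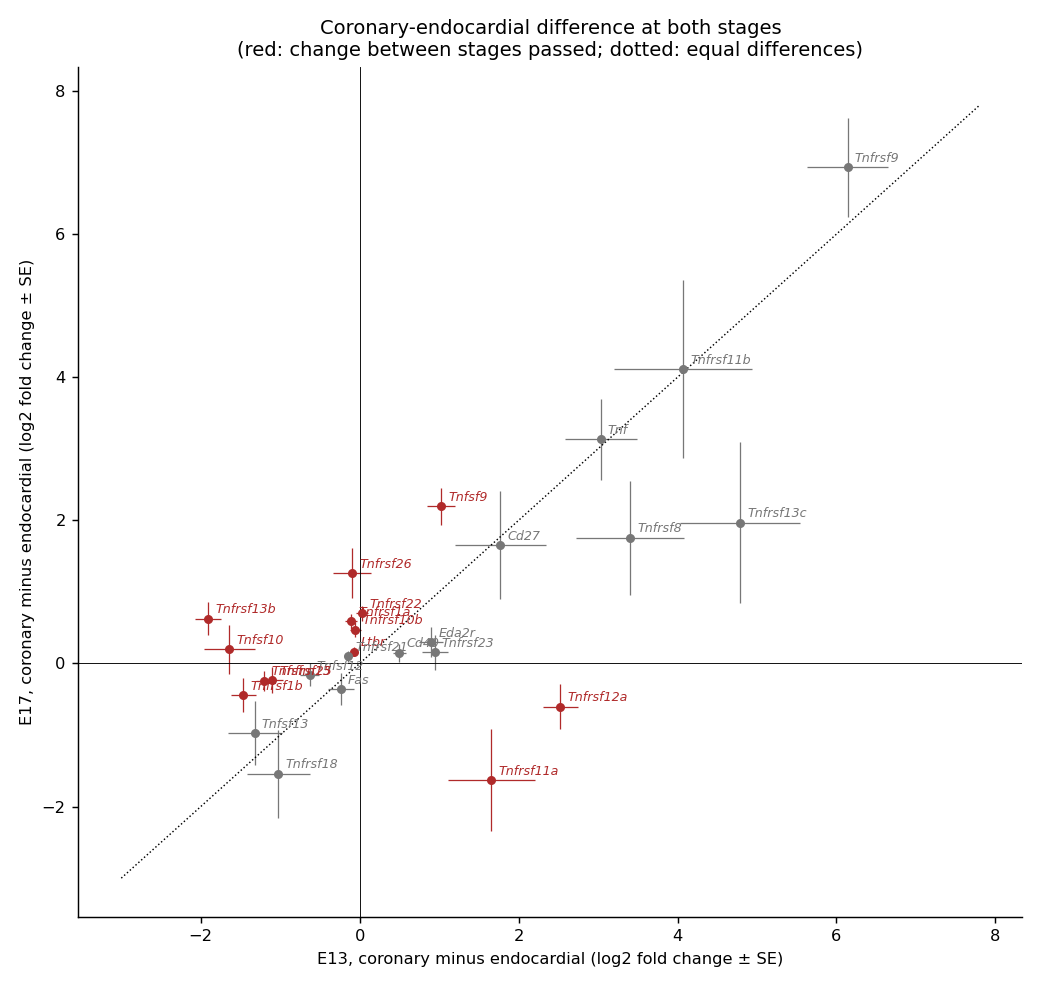
Coronary minus endocardial log2 fold change at E13 (horizontal axis) and at E17 (vertical axis), with SE bars, for 27 tested members; Tnfsf11 is left out because both E17 coronary libraries had 0 counts. Red points passed the test of the change between stages and the dotted line marks equal differences. Tnfrsf9, at 6.14 and 6.93, lies farthest out, and Tnfrsf12a, at 2.53 and -0.60, lies far below the line.

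From E13 to E17, endocardial libraries gained Tnfsf10, Tnfsf12, Tnfsfm13, Tnfrsf12a, Tnfrsf11a, Fas and Tnfrsf1a RNA and lost Cd40, Tnfrsf13b and Tnfrsf1b RNA. That was 7 members higher and 3 lower of 28, where 31.8% of all genes passed, 16.2% higher and 15.6% lower. The members' median was 0.28, against 0 over all genes. Without E17 endocardial replicate 1, which leaves a lone library in that group, fewer members were higher, as were fewer of all genes. Library totals turned the split over all genes from 2462 higher and 2368 lower to 2096 and 2976.

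Coronary libraries gained more members with stage. Of 28, 14 rose, among them all ligands tested except Tnfsf11, and the 3 that fell were Cd40, Tnfrsf12a and Tnfrsf23. Of all genes 50.1% passed, 24.6% higher and 25.6% lower, and the median was 0.48 for the members and -0.017 over all genes. Of 10 endothelial markers, 9 rose and 1 fell in the same comparison, with a median of 0.93. The part of endothelial content in the members' rises was not tested. Library totals moved the median of all genes by -0.15 here and the split of calls from 3725 higher and 3879 lower to 2586 and 5467. The coronary and endocardial stage changes share no libraries, but alleles, tamoxifen and the same batch labels differ between the stages in both. They are therefore not independent of each other. With stage 5 members rose in both (Fas, Tnfrsf1a, Tnfsf10, Tnfsf12 and Tnfsfm13), 1 fell in both (Cd40) and 2 passed in opposite directions (Tnfrsf12a and Tnfrsf13b). The share of all genes called in both was not counted, so these numbers describe the members only.

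**Figure D4:**
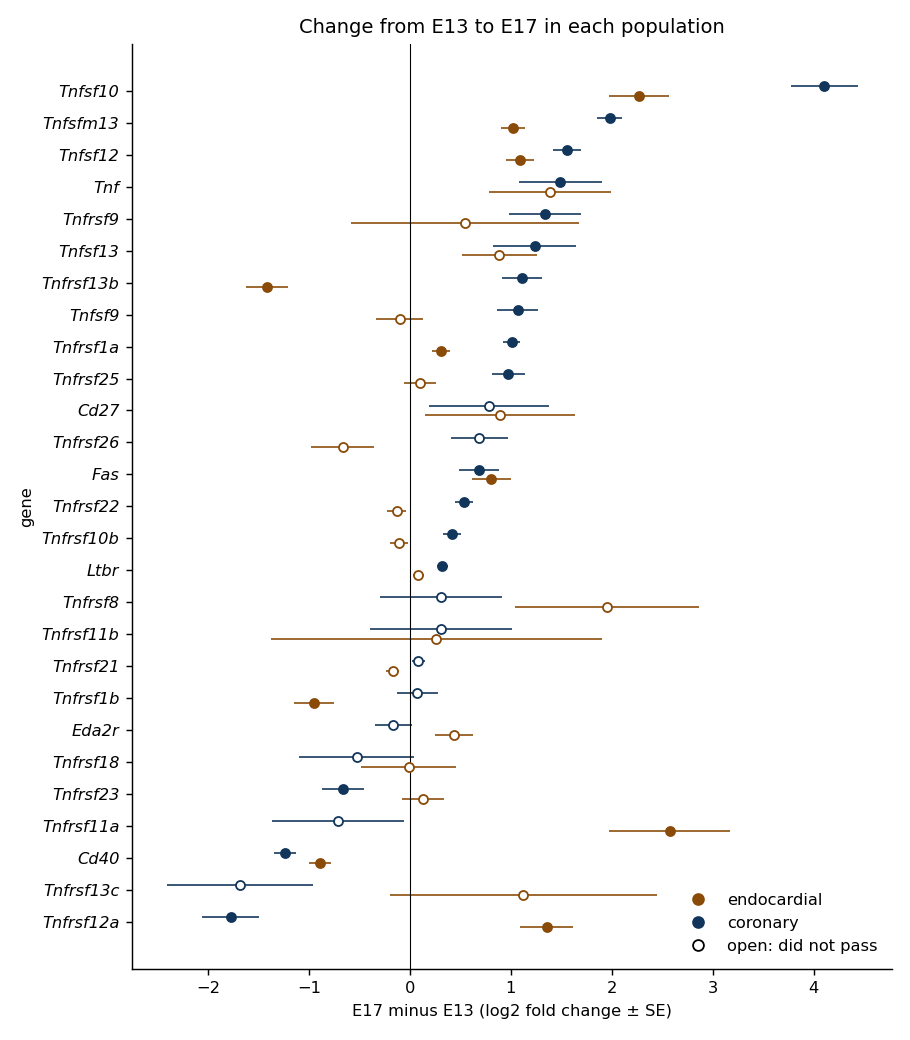
Log2 fold change from E13 to E17 with SE bars (horizontal axis) for 27 tested members (vertical axis, ordered by the coronary change), in endocardial and in coronary libraries, with open circles where the change did not pass. Tnfsf10 rose most in coronary libraries, by 4.11, and Tnfrsf12a and Tnfrsf13b moved in opposite directions in the 2 populations.

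The coronary-endocardial difference itself changed between the stages for 13 members. It shifted towards coronary libraries for 11, most for Tnfrsf13b, and towards endocardial libraries for Tnfrsf12a and Tnfrsf11a. Over all genes 32.7% passed, 16.2% towards coronary and 16.5% towards endocardial libraries. The members' median was 0.25, against 0.0022 over all genes. Library totals turned the split over all genes from 2465 and 2497 to 1780 and 3020. Without E17 coronary replicate 2, which leaves a lone library in that group, fewer members shifted towards coronary libraries, as did fewer of all genes. For Tnf and Tnfrsf9, the test of the change did not pass, at adjusted p = 0.957 and 0.694, which does not show that their differences were equal.

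Some results that did not pass with all 12 libraries passed when 1 was left out. The endocardial change of Tnfrsf21 with stage passed without E13 endocardial replicate 2 (adjusted p = 0.0465) or E17 endocardial replicate 2 (0.0445), as did its change of difference (0.0401 and 0.03). Tnfrsf8 passed for the endocardial change without E13 endocardial replicate 2 (adjusted p = 0.029). For the coronary change, Tnfrsf13c passed without E13 coronary replicate 3 (adjusted p = 0.0421), Tnfrsf26 without replicate 1 (0.0177) and Tnfsf11 without replicate 2 (0.0155). The change of difference passed for Cd40 without E13 endocardial replicate 4 (adjusted p = 0.0395) or E13 coronary replicate 3 (0.0419), and for Tnfrsf23 without the same libraries (0.0419 and 0.00598). Several of these also passed under other alternatives: the Tnfrsf23 change of difference by DESeq2 (adjusted p = 0.0413), with a filter of at least 1 CPM in 2 libraries (0.0472) and with library totals (0.0276), besides the block. With library totals the Cd40 change of difference (adjusted p = 0.029), the Tnfrsf21 endocardial change (0.0119) and the Tnfrsf13c coronary change (0.0484) passed too. The Tnfrsf13c change also passed with only the groups compared in the fit (adjusted p = 0.0468), and the Tnfsf11 coronary change by DESeq2 (0.0455).

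Genes that act downstream of these receptors were read from lists of textbook pathway members. Their counts stand beside shares over all genes of 60% called at E13 (30.1% higher, 29.9% lower), 52.6% at E17 (26.5% and 26.1%), 31.8% for the endocardial stage change (16.2% and 15.6%) and 50.1% for the coronary one (24.6% and 25.6%). Of 10 tested TRAF adaptors and partners, 1 was higher and 3 lower in coronary libraries at E13, 3 higher and 2 lower at E17, 3 rose and 1 fell in endocardial libraries with stage, and 4 rose and 1 fell in coronary libraries. At E13 and E17 the 4 and 5 called of 10 were below the shares of 60% and 52.6% over all genes. Traf1, an NF-kB-induced adaptor of TNF receptor 2, was lower in coronary libraries at both stages, at log2 differences of -1.48 ± 0.25 (adjusted p = 0.000233) and -1.45 ± 0.32 (adjusted p = 0.00226). Traf1 rose with stage by 1.32 ± 0.26 (adjusted p = 0.00224) in endocardial and 1.35 ± 0.30 (adjusted p = 0.00238) in coronary libraries. Traf3, a brake on noncanonical NF-kB, was higher in coronary libraries by 0.54 ± 0.051 (adjusted p = 2.05e-06) at E13 and 0.31 ± 0.075 (adjusted p = 0.00431) at E17.

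The 13 genes of death signalling gave 3 higher and 4 lower in coronary libraries at E13, where 60% of all genes were called, and 6 higher and 3 lower at E17, where 52.6% were. With stage, 5 rose and 3 fell in endocardial libraries and 9 rose and 2 fell in coronary libraries, where 31.8% and 50.1% of all genes were called. Ripk3, the kinase of necroptosis, was higher in coronary libraries at both stages, by 1.17 ± 0.100 (adjusted p = 8.72e-07) and 1.40 ± 0.14 (adjusted p = 5.78e-06). Casp8, the initiator caspase of death receptors, averaged 40.5 ± 1.59, 44.0 ± 5.94, 25.8 ± 1.70 and 78.1 ± 3.43 CPM (mean ± SD) in E13 endocardial, E13 coronary, E17 endocardial and E17 coronary libraries. Its E17 coronary excess was 1.60 ± 0.12 (adjusted p = 4.02e-07). Cflar (c-FLIP), which restrains caspase 8, was lower in coronary libraries at E13, at a log2 difference of -0.69 ± 0.044 (adjusted p = 8.12e-08), and rose there with stage by 0.56 ± 0.053 (adjusted p = 3.96e-06).

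Of 18 genes of the NF-kB core, 6 were higher and 6 lower in coronary libraries at each stage, 6 rose and 2 fell in endocardial libraries, and 7 rose and 3 fell in coronary libraries. Over all genes 60% were called at E13, 52.6% at E17, and 31.8% and 50.1% with stage. Relb, a noncanonical NF-kB subunit, was higher in coronary libraries by 0.93 ± 0.14 (adjusted p = 9.15e-05) at E13 and 1.07 ± 0.20 (adjusted p = 0.000568) at E17. Ikbke, an IKK-related kinase, averaged 17.2 ± 1.60 and 8.40 ± 0.649 CPM in E13 endocardial and coronary libraries and 24.4 ± 0.200 and 1.15 ± 0.698 CPM at E17. Its E17 difference was -4.43 ± 0.26 (adjusted p = 4.67e-08). Map3k14 (NIK), the kinase of the noncanonical pathway that Fn14, CD40 and LTBR feed, rose in endocardial libraries by 1.77 ± 0.19 (adjusted p = 3.77e-05). The 12 brakes and ubiquitin regulators gave 2 higher and 5 lower in coronary libraries at E13 and 5 higher and 3 lower at E17, beside 60% and 52.6% of all genes called. With stage, 5 rose and 0 fell in endocardial and 10 rose and 0 fell in coronary libraries, where 16.2% and 24.6% of all genes rose and 15.6% and 25.6% fell. Tnfaip3 (A20), an NF-kB target that ends TNF signalling, was higher in coronary libraries by 0.97 ± 0.18 (adjusted p = 0.000652) at E13 and 0.89 ± 0.25 (adjusted p = 0.00955) at E17. The E17 call was lost without E17 endocardial replicate 2 (adjusted p = 0.0944) or E17 coronary replicate 1 (0.0546). Timp3, which inhibits the TNF-shedding protease, rose by 1.37 ± 0.078 (adjusted p = 4.17e-07) in endocardial and 1.501 ± 0.078 (adjusted p = 4.19e-08) in coronary libraries.

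Genes that TNF is known to induce in endothelium rose in endocardial libraries with stage. Of 17 tested, 14 rose and 1 fell there, where 16.2% of all genes rose and 15.6% fell, and the list's median was 1.61 against 0 over all genes. Markers of other cells moved in the same libraries. Of 10 coronary capillary markers 6 rose and 1 fell in endocardial libraries, their sum going from 104.5 to 147.1 CPM per library at E13 to 450.8 to 457.6 CPM at E17. Of 11 fibroblast markers 4 rose and 1 fell, with Dcn (decorin) going from 2.94 ± 0.542 to 131 ± 8.003 CPM and Lum (lumican) from 6.40 ± 0.678 to 120.1 ± 3.01 CPM (mean ± SD). The part of these in the list's change was not tested. Sele (E-selectin) rose from 5.66 ± 1.56 to 58.2 ± 0.227 CPM, by 3.33 ± 0.21 (adjusted p = 8.53e-07), Vcam1 from 15.3 ± 2.48 to 119 ± 1.27 CPM, by 2.96 ± 0.24 (adjusted p = 4.78e-06), and Selp (P-selectin) from 0.635 ± 0.173 to 6.52 ± 0.508 CPM, by 3.34 ± 0.29 (adjusted p = 7.77e-06). In coronary libraries 7 of the 17 rose and 5 fell, with Sele rising by 2.14 ± 0.19 (adjusted p = 2.51e-06). Cxcl16, a chemokine, and Tnfaip2 were among those that fell there, at log2 changes of -1.64 ± 0.11 (adjusted p = 2.36e-07) and -1.26 ± 0.10 (adjusted p = 1.35e-06). Over all genes 24.6% rose and 25.6% fell. At E13, 8 were higher and 2 lower in coronary libraries, and at E17, 4 higher and 8 lower, beside 60% and 52.6% of all genes called. Cx3cl1 (fractalkine) was higher in coronary libraries at both stages, by 2.76 ± 0.21 (adjusted p = 3.07e-07) and 2.25 ± 0.27 (adjusted p = 1.9e-05). Icam1 was lower at both, at log2 differences of -1.13 ± 0.10 (adjusted p = 1.76e-06) and -1.13 ± 0.14 (adjusted p = 3.55e-05). Several of these genes respond to other cytokines too, and whether their levels followed Tnf was not tested.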

How the data were processed

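The files hold, as deposited, RSEM expected counts for each gene of 12 libraries. CASAVA 1.8.2, cutadapt 1.3, RSEM 1.2.3 and the build GRCm38 were used, per the submitters' processing notes. Libraries were poly-A selected and read from 1 end, and the labels do not state that the kit marks strand, so antisense pairs were not separated. Counts, of which 18.3% were not whole, were rounded. Genes passing edgeR's filter (minimum count 10, total 15) were scaled by TMM and fitted with edgeR's quasi-likelihood test (edgeR 4.0.16, limma 3.58.1, R 4.3.3) on 4 group means, with 8 residual degrees of freedom, a common biological coefficient of variation of 0.126 and a threshold of 0.05 on the adjusted p. The steps were tested on simulated data. SE is the absolute log2 fold change divided by the root of the F statistic. Count ratios use unscaled library totals, with exact 95% intervals. Alternatives included DESeq2 1.42.0, other filters and scalings, a block and leaving out each library.

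Batch labels pair an endocardial and a coronary library. Libraries sharing a batch label deviated together, with correlations of 0.411, 0.694, 0.408 and 0.497 for the 4 batches of E13 and 0.393 for those of E17, over 9481 genes. All members were described; from each pathway list, genes were named among up to 4 per comparison with the smallest adjusted p. Members and lists were chosen with earlier results of these data known.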

Additional observations from a re-analysis of the deposited data

Results flagged for a closer look

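For 3 members 1 library stood apart from the others of its group, out of 56 combinations of a member and an E13 group that were checked; 2 of the 3 were in E13 coronary replicate 3. Tnfrsf11a was at 0.301 CPM in E13 endocardial replicate 1, against 0.0961 to 0.119 in the others. Tnfrsf13c was at 0.403 CPM in E13 coronary replicate 3, against 0.953 to 1.01. Tnfrsf23 was at 10.9 CPM in E13 coronary replicate 3, against 17.1 to 17.6. The groups of 2 libraries at E17 could not be checked in this way.

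For 13 members the coronary-endocardial log2 difference changed from E13 to E17 by edgeR's test of the change itself. The change was 2.53 for Tnfrsf13b, 1.84 for Tnfsf10, 1.35 for Tnfrsf26, 1.17 for Tnfsf9, 1.02 for Tnfrsf1b, 0.96 for Tnfsfm13, 0.87 for Tnfrsf25, 0.70 for Tnfrsf1a, 0.67 for Tnfrsf22, 0.53 for Tnfrsf10b and 0.24 for Ltbr. It was -3.13 for Tnfrsf12a and -3.29 for Tnfrsf11a.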

How the results depend on the processing

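Of 2549 results for single members under the alternatives, 2427 stayed on their side of the threshold, 89 lost a call and 33 gained one. A change of direction was counted only where the result was called in at least 1 of the 2 fits, and 0 were found. Results that passed in neither fit could change sign. The endocardial stage change of Tnfrsf11b, 0.26 with all libraries, ran from -2.20 to 1.03 with 1 library left out. With the batch as a replicate block, the pairing moved the E17 count of members lower in coronary libraries from 0 to 1 (Tnfrsf1b), and the block changed no call beyond those given beside the results. With only the groups compared in the fit, 7 members were higher in coronary libraries at E13 and 1 was lower at E17; the other 5 of the 12 at E13 (Cd27, Tnfrsf8, Tnfrsf11a, Tnfrsf11b and Tnfrsf13c) then missed the filter and were not tested. Library totals gave 4 members whose difference shifted towards endocardial libraries, and the cause was not tested. Leaving out 1 library at a time, the E17 lower count ran from 0 to 2, the endocardial rises with stage from 4 to 9, the shifts towards coronary libraries from 7 to 12 and those towards endocardial libraries from 1 to 4. The E17 groups hold 2 libraries each, and without 1 of them the lone library is assumed to vary like the other groups. Fewer of all genes then passed in each comparison that uses that group. Depth limits the members with few counts, such as Tnfrsf11b, Tnfrsf13c and Tnfsf11.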

Other observations

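Near relatives outside the family rule also differed. Relt, an orphan TNF receptor relative, was higher in coronary libraries by 0.69 ± 0.11 (adjusted p = 0.000226) at E13 and 1.05 ± 0.17 (adjusted p = 0.000246) at E17 (log2 fold change ± SE, edgeR). Eda, the ligand ectodysplasin, was lower in E17 coronary than in E17 endocardial libraries, at a log2 difference of -1.50 ± 0.23 (adjusted p = 0.000158). Edaradd, the adaptor of the ectodysplasin receptor, was measured at a log2 difference of -0.64 ± 0.19 (adjusted p = 0.00977) at E13 and -1.69 ± 0.35 (adjusted p = 0.00157) at E17.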
